A study of Homo sapiens with 60 samples.

Results

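The genes described here are 10 genes used to recognize astrocytes or their reactive state, chosen by gene name from the 62703 genes of the deposited count table: GFAP, VIM, and NES of the filament cytoskeleton, SLC1A3, SLC1A2, GLUL, AQP4, and ALDH1L1 of transport and metabolism, the calcium-binding S100B, and the transcription factor SOX9. They were measured in 1321N1, a human cell line derived from an astrocytoma and therefore not a primary astrocyte culture. Cells were exposed to 2.55 µM arsenic as sodium metaarsenite, 2.3 µM cadmium chloride, or 20 µM mercury chloride, or were non-treated, and RNA was taken after 1.5 h, 3 h, 6 h, 12 h, or 24 h, with 3 libraries in each of 20 groups and 60 libraries in all. The labels describe the 3 libraries of a group as technical, so that the p values given below measure the spread between these libraries and may not cover that between independent cultures.

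RNA was sequenced from the 3′ end of transcripts, so that a count does not grow with transcript length and the levels of different genes could be set side by side. Levels are given as CPM (counts scaled to a common normalized library size), and differences as log2 fold change (LFC) with its standard error (SE). Library totals ranged from 2215276 to 4404609 counts, and 3 counts, taken as the floor, corresponded to 0.681 to 1.35 CPM in a library. Of the 10 genes, 4 had enough counts for the test across 12341 genes, namely VIM, SOX9, GLUL, and NES. A gene was called when its adjusted p was under 0.05 in edgeR's quasi-likelihood test.

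Astrocytes take up synaptic glutamate through SLC1A2 and SLC1A3, convert it to glutamine through GLUL, and move water through AQP4 at their endfeet. Their filaments are built from GFAP and vimentin, and nestin is added in progenitors and in reactive cells. SOX9 starts glial development and remains expressed in mature astrocytes, and a rise of GFAP, vimentin, and nestin is the classical sign of a reactive state.

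In non-treated 1321N1 cells, vimentin was abundant, SOX9 and glutamine synthetase were present at moderate levels, nestin was low, and 4 of the markers most often used to define an astrocyte were at the floor. VIM had 4434 ± 583 CPM (SD, n = 15) and ranked 13 among all genes. SOX9 followed with 78.9 ± 20.4 CPM, and GLUL with 22.7 ± 5.0 CPM. NES had 3.82 ± 1.31 CPM and SLC1A3 0.838 ± 0.468 CPM. These 5 genes kept their order in every non-treated library range, since the lowest SOX9 library, at 49.5 CPM, lay above the highest GLUL library, at 33.8 CPM, and the lowest NES library, at 1.85 CPM, lay just above the highest SLC1A3 library, at 1.73 CPM. SLC1A2, at 0.188 ± 0.407 CPM, and GFAP, at 0.0604 ± 0.234 CPM, overlapped with SLC1A3 and with each other.

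**Figure D1:**
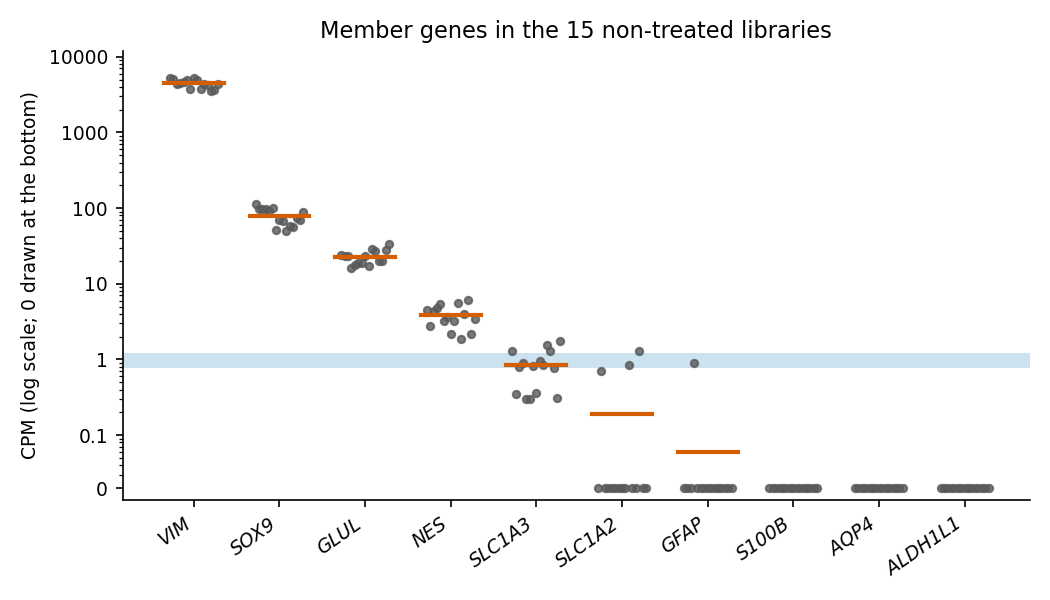
CPM (log scale) of the 10 genes in the 15 non-treated libraries, with 1 point per library and a bar at the mean. The band spans the level of 3 counts in these libraries, 0.778 to 1.23 CPM. VIM lies at 3504 to 5256 CPM, whereas S100B, AQP4, and ALDH1L1 have 0 counts in all 15 libraries.

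GFAP, S100B, AQP4, and ALDH1L1 did not rise above the floor in any of the 20 groups. GFAP, a filament protein of astrocytes (chromosome 17, 44903159 to 44916937, minus strand), had 6 counts over 60 libraries. Of these, 3 were in the first non-treated library of 3 h, 2 in the third cadmium library of 12 h, and 1 in the first arsenic library of 1.5 h. S100B (chromosome 21, 46598604 to 46605208, minus strand) had 1 count, in the first mercury library of 24 h. AQP4, the water channel (chromosome 18, 26852043 to 26865771, minus strand), and ALDH1L1, a dehydrogenase of folate metabolism (chromosome 3, 126103562 to 126197994, minus strand), had 0 counts in all 60 libraries. A count of 0 in a single library allows a level of up to 3 counts there, and this limit covers counting error only. The last 400 exonic bases of the annotated transcripts of these genes, where 3′ reads fall, had 0% overlap with exons of another gene on the same strand. Whether reads of these genes were lost in alignment or counting was not tested. The study describes the line as astrocyte-derived, which states its origin and not its marker levels. These 4 defining markers of astrocytes were at or near 0 in it at this depth, and the origin was not tested. With SLC1A3 and SLC1A2, 6 of the 10 genes had too few counts for the test, so that no change with a metal could be examined for GFAP, the first gene read for reactivity.

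The floor extended to other astrocyte markers. Of 23 further genes of astrocyte identity, 8 had at most 3 counts in every library and 7 could be tested, with clusterin (CLU, a secreted chaperone) at 40.6 ± 3.85 CPM and tissue factor (F3) at 30.8 ± 10.6 CPM in non-treated cells. Markers of microglia and endothelium were low throughout, with 0 of 8 and 0 of 6 tested. CD68 and PTPRC, the highest microglial markers, had 0.621 ± 0.715 and 0.279 ± 0.362 CPM, and CDH5 and FLT1, the highest endothelial ones, had 0.0577 ± 0.223 and 0.0373 ± 0.144 CPM. Neuronal markers were tested for 4 of 8 genes, led by GAD1 at 10.0 ± 2.41 and SYT1 at 9.67 ± 2.93 CPM. Of the oligodendrocyte lineage markers 3 of 8 were tested, with CSPG4 at 94.7 ± 15.9 and CNP at 56.2 ± 9.83 CPM, whereas MOG and SOX10 had 0 counts in all libraries. Mesenchymal genes were the highest of these lists, with 7 of 8 tested, COL1A1 at 814 ± 73.5 CPM and COL1A2 at 402 ± 55.6 CPM, both above SOX9 and GLUL. The list was uneven, since COL3A1 had 0 counts in the non-treated libraries, and ACTA2 and TAGLN had 2.48 ± 1.43 and 3.33 ± 1.26 CPM.

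SOX9 gave 3 of the 4 calls of the 10 genes against non-treated cells. With arsenic its level was lower than in non-treated cells at 12 and 24 h, and at 24 h it was at 39.0 ± 3.62 CPM against 77.0 ± 11 CPM (SD, n = 3), whereas it was higher with cadmium at 12 h and passed the test with mercury at none of the 5 time points. The gene lies on chromosome 17 (72121020 to 72126416, plus strand). At 24 h the arsenic libraries had 43.1, 37.3, and 36.5 CPM. The non-treated libraries of that time had 73.1, 68.6, and 89.4 CPM. All 3 arsenic libraries were lower than every non-treated one, and the LFC was -0.98 (SE 0.15, adjusted p = 5.82e-07), in a comparison in which 14.3% of all tested genes were called. The share of all genes whose libraries did not overlap was not counted, here or for the ranges given below.

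At 12 h the SOX9 levels were 29.7, 30.8, and 44.5 CPM with arsenic. The non-treated libraries had 49.5, 58.7, and 57.1 CPM. The groups did not overlap, and the LFC was -0.65 (SE 0.15, adjusted p = 0.00388, 4.11% of all genes called). This call rests in part on the first arsenic library of 12 h, without which the LFC was -0.54 (adjusted p = 0.0666). The arsenic libraries also lay below the non-treated ones at 3 h (70.0 to 78.5 against 91.6 to 100.2 CPM) and at 6 h (42.0 to 50.5 against 51.8 to 68.7 CPM). The LFC of -0.37 (SE 0.14, adjusted p = 0.504) and -0.44 (SE 0.15, adjusted p = 0.204) at these times did not pass the test, in comparisons in which 0.138% and 0.916% of all genes were called. At 1.5 h the ranges overlapped, with an LFC of -0.12 (SE 0.14, adjusted p = 0.816). Averaged over the 5 time points, the LFC with arsenic was -0.51 (SE 0.07, adjusted p = 7.93e-09, 7.95% of all genes called).

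**Figure D2:**
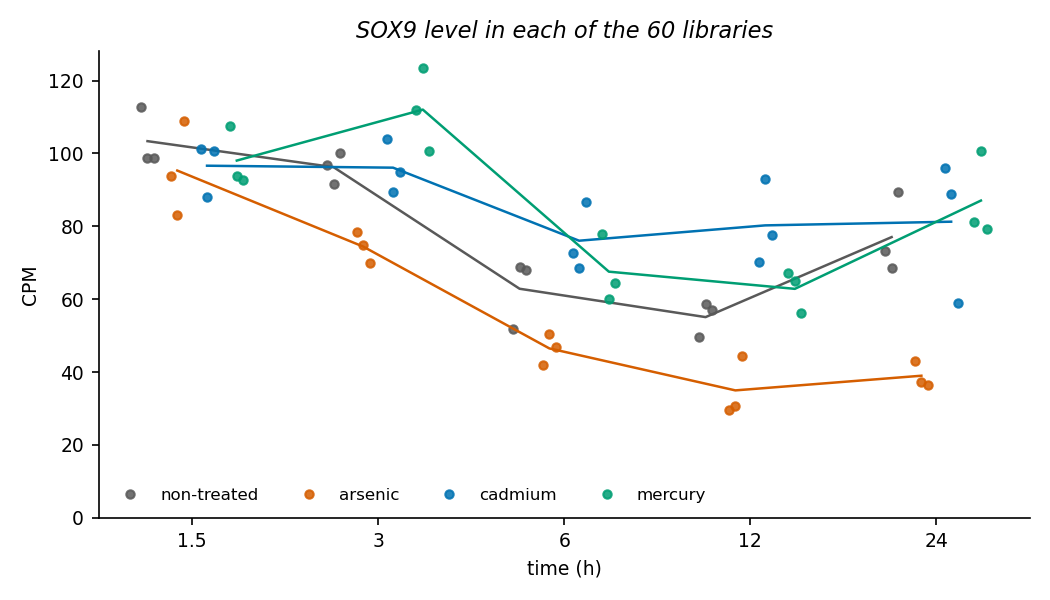
SOX9 level in CPM (y axis, from 0) against time in hours (x axis, not to scale) in all 60 libraries, with 1 point per library and lines through the means of 3. Arsenic libraries end at 36.5 to 43.1 CPM at 24 h, below all libraries of the other treatments at that time.

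Cadmium had the opposite sign at 12 h. SOX9 was at 70.3, 92.9, and 77.6 CPM with cadmium, all higher than the 49.5 to 58.7 CPM of non-treated cells, with an LFC of 0.55 (SE 0.15, adjusted p = 0.00859, 8.18% of all genes called). Without the second cadmium library of 12 h the LFC was 0.43 (adjusted p = 0.123), and without the first non-treated library of 12 h it was 0.47 (adjusted p = 0.0823). At 24 h cadmium libraries were spread from 58.9 to 96.1 CPM, around the non-treated range, with an LFC of 0.09 (SE 0.14, adjusted p = 0.870). The third cadmium library of 24 h was the lowest of its group for SOX9 and also for VIM and GLUL. Mercury gave an LFC from -0.08 to 0.22 over the 5 time points, and the adjusted p closest to the threshold was 0.372, at 24 h (95% interval -0.10 to 0.46).

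The metals were then compared directly, since a call with one metal and not with another does not show that they differ. SOX9 was lower in the arsenic than in the cadmium libraries at 6, 12, and 24 h, with an LFC of -0.71 (SE 0.15, adjusted p = 0.00213), -1.20 (SE 0.15, adjusted p = 1.22e-08), and -1.07 (SE 0.15, adjusted p = 8.55e-08), and 1.18%, 5.77%, and 10.2% of all genes were called in these comparisons. It was lower with arsenic than with mercury from 3 h on, with an LFC of -0.59, -0.53, -0.84, and -1.16 at 3, 6, 12, and 24 h, in comparisons calling 1.89%, 4.48%, 6.84%, and 11.4% of all genes. In all 7 of these comparisons the libraries of the 2 metals did not overlap. Such separation also occurred without a call, as for VIM in arsenic against cadmium at 3 h (LFC 0.19, SE 0.12, adjusted p = 0.853). The share of all genes separated in this way was not counted. The calls against mercury at 3 and 6 h were each lost when single libraries were left out, for example the second mercury library of 3 h (LFC -0.51, adjusted p = 0.109) and the first mercury library of 6 h (LFC -0.42, adjusted p = 0.175). Cadmium and mercury did not differ in the test at any time, and the widest gap was at 12 h, where the LFC of cadmium over mercury was 0.36 (95% interval 0.07 to 0.65, adjusted p = 0.200).

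SOX9 also moved in non-treated cells. It fell from 103 CPM at 1.5 h to 62.9 at 6 h and 55.1 at 12 h, and stood at 77.0 CPM at 24 h. Against 1.5 h the LFC was -0.71 at 6 h (SE 0.14, adjusted p = 0.00468, 0.486% of all genes called) and -0.91 at 12 h (SE 0.14, adjusted p = 1.74e-05, 4.09% called). The 6 h call was lost without the first non-treated library of 6 h (LFC -0.60, adjusted p = 0.133) or of 1.5 h (LFC -0.65, adjusted p = 0.0610). At 24 h the LFC of -0.43 did not pass the test (SE 0.14, adjusted p = 0.0732). The change over time in non-treated cells was therefore of about the size of the changes with metals, which were all read against non-treated cells harvested at that time.

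Over the means of the 20 groups, the genes whose level followed that of SOX9 most closely were the transcription factor genes ETS2 (Pearson r = 0.878) and FOXC2 (r = 0.874). These means share libraries and treatments, and the values are a description. Among markers of other cell types, the oligodendrocyte lineage list was also lower with arsenic at 24 h, with a sum of 100 to 139 CPM against 182 to 200 CPM, carried by CSPG4 (LFC -1.23, SE 0.15, adjusted p = 1.11e-09), and the summed mesenchymal markers were at 1131 to 1159 against 1397 to 1825 CPM. With mercury at 24 h, where the LFC of SOX9 was 0.18, these sums were lower as well, at 124 to 127 and 1020 to 1080 CPM. The part of such genes in the SOX9 result was not tested.

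**Figure D3:**
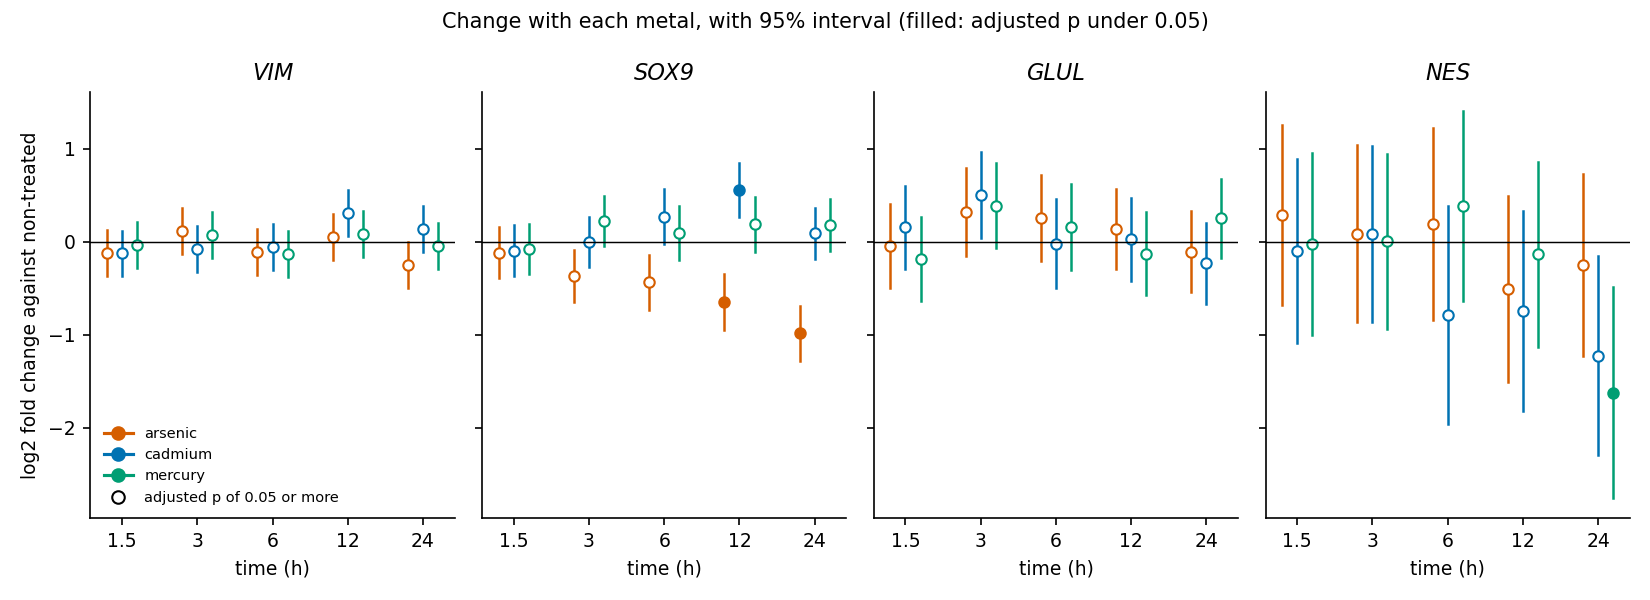
LFC against time-matched non-treated cells (y axis) for the 4 tested genes with each metal over time (x axis, hours, not to scale), with 95% intervals and filled points where the adjusted p was under 0.05. The 4 filled points are SOX9 with arsenic at 12 h (-0.65) and 24 h (-0.98), SOX9 with cadmium at 12 h (0.55), and NES with mercury at 24 h (-1.62).

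Vimentin, a filament protein of mesenchymal and glial cells (chromosome 10, 17228241 to 17237593, plus strand), remained the highest of the 10 genes in every library, between 3014 and 5782 CPM. Against non-treated cells, edgeR called 3.9%, 2.52%, and 10.7% of the tests of all genes with arsenic, cadmium, and mercury. VIM passed the test in 0 of these 15 comparisons by edgeR and 0 by DESeq2, and an unadjusted p under 0.05 was reached in 2 of them. One was arsenic at 24 h, where the libraries had 3094, 3259, and 3267 CPM. The non-treated libraries of 24 h had 3504, 3637, and 4317 CPM. All arsenic libraries were lower, but the LFC was only -0.25 (SE 0.12, 95% interval -0.50 to -0.01, adjusted p = 0.175). The other was cadmium at 12 h, with an LFC of 0.31 (SE 0.12, adjusted p = 0.115) and overlapping ranges. In the fit without a filter on low counts these became calls, with adjusted p = 0.0185 for arsenic and 0.00544 for cadmium at nearly the same LFC.

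Of the direct comparisons between metals, VIM was called only in that of arsenic and cadmium at 24 h, with an LFC of -0.39 (SE 0.12, adjusted p = 0.0298, 10.2% of all genes called). The cadmium libraries had 4600, 4975, and 3014 CPM, and the third of them lay below all arsenic libraries, so that the ranges overlapped. The call was lost in 5 of the 6 fits with 1 library left out, down to an LFC of -0.25 (adjusted p = 0.251) without the second cadmium library. In non-treated cells VIM was at 4868 ± 472 CPM at 1.5 h and 3820 ± 436 at 24 h (LFC -0.35, SE 0.12, adjusted p = 0.0991).

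Nestin, the progenitor filament protein (chromosome 1, 156668763 to 156677407, minus strand), had 1 to 25 counts per library and was lower with mercury at 24 h. The mercury libraries had 4, 7, and 1 counts. The non-treated libraries of 24 h had 24, 7, and 12 counts. In CPM the highest mercury library (2.17) just exceeded the lowest non-treated one (2.15), so that the ranges touched, and the LFC was -1.62 (SE 0.57, 95% interval -2.76 to -0.49, adjusted p = 0.0252). In that comparison 27.8% of all genes were called, and NES was the only one of the 4 tested genes among them. Without the first non-treated library of 24 h, which held the 24 counts, the LFC was -1.13 (adjusted p = 0.221). The call was also lost without the first mercury library of 24 h (adjusted p = 0.0655) or the third (LFC -1.20, adjusted p = 0.147), and in the fit without a filter (adjusted p = 0.0628).

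With cadmium at 24 h, NES had 7, 7, and 4 counts, or 1.44 to 2.00 CPM, all below the 2.15 to 6.18 CPM of non-treated cells. The LFC of -1.22 had an SE of 0.53 and an adjusted p of 0.295, in a comparison in which 2.19% of all genes were called. Arsenic at 24 h left NES at 2.60 to 4.42 CPM, within the non-treated range (LFC -0.25, SE 0.49). Averaged over the time points, the LFC of NES was -0.56 for cadmium (SE 0.24, adjusted p = 0.182), -0.28 for mercury (SE 0.23), and -0.04 for arsenic (SE 0.22). The SE of its LFC at a single time point was 0.47 to 0.59. The genes most alike to NES over the 20 group means were the helicase subunit ASCC3 (r = 0.848) and the kinesin KIF18B (r = 0.823), given as a description.

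**Figure D4:**
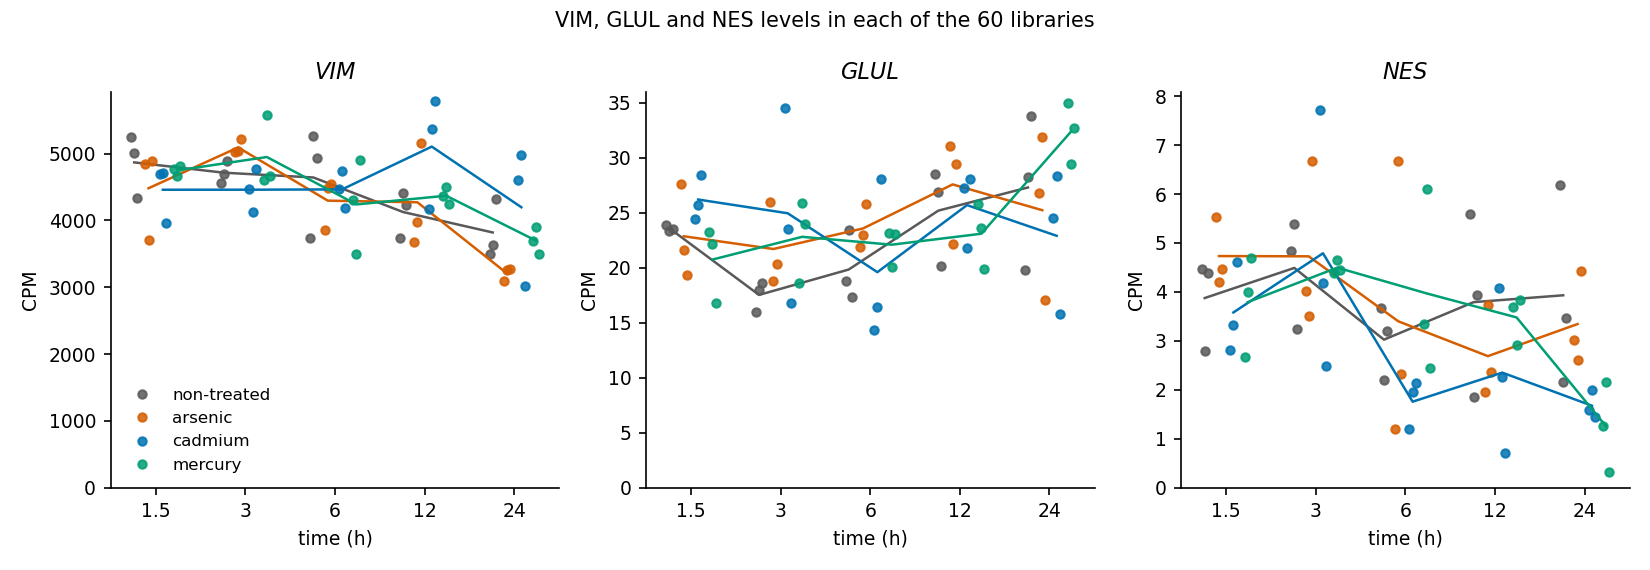
CPM of VIM, GLUL, and NES (y axes, from 0) against time in hours (not to scale) in all 60 libraries, with 1 point per library and lines through the means of 3. VIM stays between 3014 and 5782 CPM, GLUL between 14.3 and 34.9 CPM, and NES with mercury ends at 0.330 to 2.17 CPM at 24 h.

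Glutamine synthetase, which joins ammonia to glutamate (GLUL, chromosome 1, 182378098 to 182392206, minus strand), ranged from 14.3 to 34.9 CPM and was called in 0 of the 15 comparisons with non-treated cells and 0 of the 15 between metals by edgeR, and in 0 by DESeq2. Over all genes, edgeR called 3.9%, 2.52%, and 10.7% of the tests with arsenic, cadmium, and mercury, and 4.86% between metals. Most tests of any gene were thus not called. The LFC against non-treated cells ran from -0.23 to 0.50. The upper end was cadmium at 3 h, with 34.5, 23.5, and 16.8 CPM against 16, 18.0, and 18.6 CPM, an unadjusted p of 0.0323, and an adjusted p of 0.558. The lowest cadmium library lay inside the non-treated range. With mercury at 24 h GLUL was at 34.9, 29.4, and 32.7 CPM, against 19.8, 28.3, and 33.8 CPM in non-treated cells, and the 95% interval of the LFC, -0.18 to 0.68, included 0.

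The glutamate transporters were near the limit of counting. SLC1A3 (chromosome 5, 36596588 to 36688334, plus strand) had 205 counts over 55 of the 60 libraries and was at the floor in 7 of the 20 groups. SLC1A2 (chromosome 11, 35251205 to 35420063, minus strand) had 23 counts in 13 libraries, with at most 3 in every group but the non-treated cells of 24 h, where the first library had 5. SLC1A2 was thus at the floor in 19 of 20 groups.

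SLC1A3 stood out in the mercury libraries of 24 h. They had 13, 13, and 9 counts, or 4.09, 4.03, and 2.97 CPM. The non-treated libraries of that time had 3, 1, and 6 counts, those with cadmium 2, 5, and 1, and those with arsenic 3, 0, and 0. Every mercury library was higher than every other library of 24 h. Over the 3 libraries of each group, the mercury level was 3.93 times the non-treated one (95% interval 1.91 to 8.91, exact and for counting error only). It was 4.95 times that with cadmium (2.26 to 12.4). No ratio to arsenic is given, since the arsenic libraries of 24 h were at the floor. The mercury group was singled out for its high counts, so these ratios are a description and no evidence of a rise. An exact two-sided permutation test of 3 against 3 libraries gave p = 0.1, the smallest value possible in this design, and 0.5 after adjustment over the 15 comparisons with non-treated cells.

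**Figure D5:**
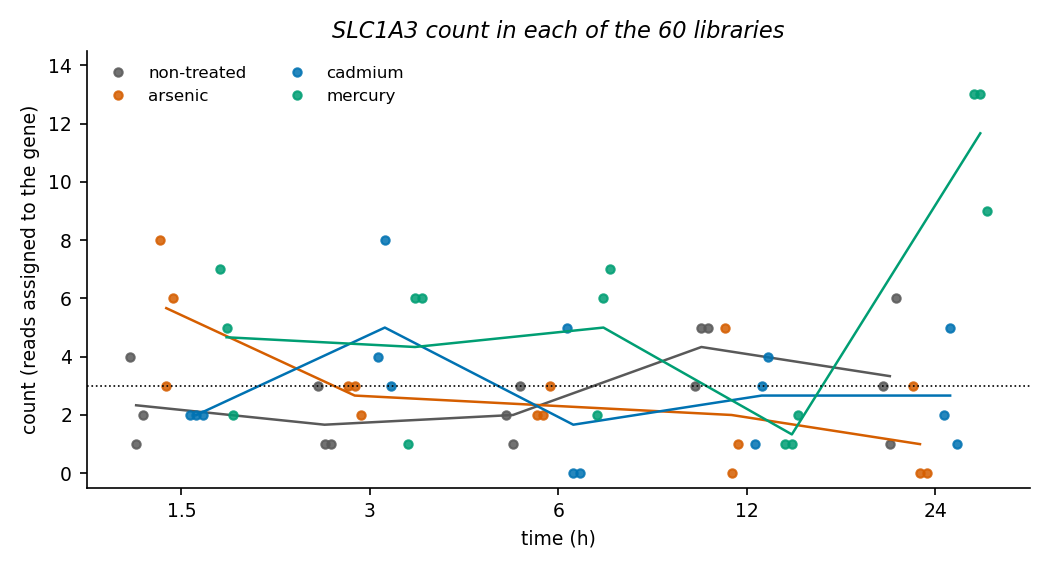
Counts of SLC1A3 (y axis) in each of the 60 libraries against time in hours (not to scale), with lines through the means of 3 and a dotted line at the floor of 3 counts. The mercury libraries of 24 h have 9 to 13 counts, and no other library has more than 8.

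At the other times SLC1A3 showed no steady order of the treatments. The same smallest exact permutation p of 0.1 was found for cadmium at 3 h (4, 8, and 3 counts against 3, 1, and 1), and for mercury at 12 h, where the sign was opposite (1, 1, and 2 counts against 3, 5, and 5). In the edgeR fit without a filter, mercury at 24 h gave an LFC of 1.94 (SE 0.91, adjusted p = 0.202). Neither an LFC nor a call is given for arsenic against mercury at 24 h. The mercury libraries stood out for their high counts, and the arsenic libraries were at the floor. SLC1A3 does not belong to the 12341 tested genes, and it could enter them only through these mercury libraries.

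Across the 4 tested genes, arsenic gave 2 calls in 20 comparisons (3.9% of all genes and time points called), cadmium 1 in 20 (2.52%), and mercury 1 in 20 (10.7%). Direct comparisons between metals gave 8 calls in 60 (4.86%), 7 of them SOX9, and non-treated cells over time gave 2 in 16 (2%). At 24 h the median LFC of the 4 genes with arsenic was -0.25, that with cadmium -0.07, and that with mercury 0.07, and that of all tested genes was 0.00, -0.01, and -0.02.

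Genes of the same functions that are not among the 10 were described by lists. Of 19 tested genes of the reactive astrocyte list, 9 were higher and 1 lower with mercury at 24 h, 5 higher and 0 lower with cadmium, and 3 higher and 3 lower with arsenic, where 27.8%, 2.19%, and 14.3% of all genes were called. The median LFC of the list was 0.55, 0.24, and 0.11, in that order. The list also holds the small heat-shock genes HSPB1 and CRYAB, which had the most calls in it. Each was called in 9 of the 15 comparisons of a metal with non-treated cells. Serglycin (SRGN, a proteoglycan core protein) rose in mercury to 387 ± 48.3 CPM (SD, n = 3) from 140 ± 18.2 (LFC 1.46, SE 0.12, adjusted p = 2.02e-15). EMP1, a membrane protein, rose with all 3 metals at 24 h (LFC 0.68, 0.47, and 1.10 with arsenic, cadmium, and mercury). TM4SF1, another membrane protein, fell with arsenic (LFC -0.94, SE 0.08, adjusted p = 1.05e-14), and its LFC with mercury was -0.02 (adjusted p = 0.858). Of the 31 genes listed, LCN2, SERPINA3, CXCL10, STEAP4, and SLC10A6 had 0 counts in all libraries.

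In the astrocyte identity list, CLU rose with every metal at 24 h, from 41.8 ± 7.74 CPM to 92.5 ± 6.40 with arsenic, 158 ± 47.0 with cadmium, and 208 ± 18.8 with mercury (LFC 1.14, 1.91, and 2.31, adjusted p = 2.85e-08, 3.40e-16, and 1.54e-20). At 24 h, 2 of the 7 genes tested, CLU and FGFR3, were called higher in the arsenic libraries, where 14.3% of all genes were called. FGFR3 had at most 9 counts in a non-treated library, under the minimum count of the filter, and at most 14 in any library. It may have passed the filter only through groups in which it was higher, so its call is not read as a rise. CLU was the only one of the 7 to rise with mercury, where 27.8% were called. With cadmium, where 2.19% were called, CLU rose, and MLC1 is not counted, for the reason given below. F3, which starts coagulation, was higher with cadmium at 12 h (LFC 0.84, adjusted p = 0.00999) and with mercury at 3 h (LFC 1.04, SE 0.21, adjusted p = 0.000750). MLC1, a membrane protein of astrocyte endfeet, had at most 3 counts in the non-treated libraries and was at 3.42 ± 0.213 CPM with cadmium at 12 h and 3.56 ± 0.724 at 24 h. Neither a fold nor a test is given for MLC1, because the non-treated libraries were at the floor and the gene passed the filter only through groups in which it was higher.

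Filament genes other than the 3 described were lower in most of their calls at 24 h. Of the 8 tested, 5 were lower and 0 higher with arsenic at 24 h, 2 lower and 0 higher with cadmium, and 5 lower and 1 higher with mercury, beside 14.3%, 2.19%, and 27.8% of all genes called. The median LFC was -0.29, -0.10, and -0.74. Lamin A (LMNA) fell with arsenic from 983 ± 128 to 565 ± 42.2 CPM (LFC -0.80, SE 0.09, adjusted p = 5.53e-11). Lamin B1 (LMNB1), which like lamin A lines the nuclear envelope, fell with mercury (LFC -0.77, SE 0.08, adjusted p = 1.81e-11). Plectin (PLEC), which links filaments, fell with arsenic (LFC -1.09) and mercury (LFC -0.89), and its LFC with cadmium was -0.19 (adjusted p = 0.572).

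Among the 10 tested genes of glutamate, ammonia, water, and potassium handling, 4 were higher and 2 lower with arsenic at 24 h, 6 higher and 1 lower with mercury, and 0 were called with cadmium, beside 14.3%, 27.8%, and 2.19% of all genes. The median LFC was 0.32, 0.49, and 0.13 in the same order. The glutamine carriers SLC38A1 and SLC38A2 rose with mercury at 24 h (LFC 1.17 and 0.93), as did the aspartate aminotransferase GOT1 (LFC 0.92). With arsenic at 24 h the LFC of these genes was 0.93, 0.25, and 0.90, all past the test. GLUL, which uses glutamate in the same cells, was not called.

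Of the 15 tested transcription factors of gliogenesis and progenitors, 3 were higher and 3 lower with arsenic at 24 h, 2 higher and 0 lower with cadmium, and 4 higher and 5 lower with mercury, beside 14.3%, 2.19%, and 27.8% of all genes called. ID1 and ID2 code for inhibitors of helix-loop-helix factors. ID1 fell with mercury at 12 h (LFC -1.11, SE 0.09, adjusted p = 3.80e-16), whereas ID2 rose at 24 h with mercury (LFC 1.71, SE 0.15, adjusted p = 1.90e-15) and cadmium (LFC 1.45). HES1, a repressor downstream of Notch, was at 27.1 ± 1.88 CPM in non-treated cells at 24 h and at 78.2 ± 5.52 with mercury (LFC 1.53, SE 0.16, adjusted p = 1.45e-11). SOX2, SOX8, and SOX10 had 0 counts in all 60 libraries, so that SOX9 was read without these relatives. Other SOX genes of the list were tested, with SOX11 at 157 ± 11.1, SOX6 at 9.16 ± 2.53, and SOX4 at 7.57 ± 2.43 CPM in non-treated cells. SOX11 was called in 5 of the 15 comparisons with non-treated cells, with an LFC of -0.83 for mercury at 6 h (SE 0.09, adjusted p = 2.81e-10).

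Relatives of S100B and ALDH1L1 were expressed although these 2 genes were at the floor. The list described here also holds the folate enzymes MTHFD1 and MTHFD2, which are counted with the relatives. Of its 9 tested genes, 3 were higher and 5 lower with arsenic at 24 h, 2 higher and 5 lower with mercury, and 0 were called with cadmium. The shares of all genes called were 14.3%, 27.8%, and 2.19%. S100A2, a calcium-binding protein at 228 ± 12.7 CPM in non-treated cells at 24 h, fell to 135 ± 28.9 with arsenic (LFC -0.76) and 119 ± 13.9 with mercury (LFC -0.94, SE 0.12, adjusted p = 5.24e-09). ALDH1L2, the mitochondrial counterpart of ALDH1L1, rose from 6.01 ± 3.67 CPM to 28.2 ± 5.22 with arsenic (LFC 2.20, SE 0.34, adjusted p = 7.07e-07) and 24.2 ± 1.05 with mercury (LFC 1.98). MTHFD2, of the same mitochondrial folate pathway, rose with arsenic (LFC 1.58) and mercury (LFC 1.72, SE 0.11, adjusted p = 5.43e-21), and its LFC with cadmium was 0.15 (adjusted p = 0.641).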

How the data were processed

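Counts of 60 libraries of 3′ mRNA sequencing were used. STAR 2.7.9a and the build GRCh38 were used by the authors for alignment, who then counted reads on GENCODE exons, strand by strand, with GenomicAlignments in Union mode, and deposited whole-number counts summed per gene, without normalization. The tool version and build are those of the submitters' processing notes.

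A single edgeR model (version 4.0.16, R 4.3.3) held all libraries, with 1 coefficient per group, TMM normalization, filterByExpr (minimum count 10, minimum total count 15), and the quasi-likelihood test, adjusted by Benjamini-Hochberg within each comparison over 12341 genes. The 15 comparisons with time-matched non-treated cells, 15 between metals, 4 over time, and 3 averages over time points were made. The script was tested on simulated data. The 92 spike-in rows had 0 counts and were left out. Alternatives were RLE size factors, DESeq2 1.42.0, no filter, a mean of at least 20 counts, a replicate block, an LFC beyond 1, only the libraries compared, and leaving out each library. Floors and the intervals of the SLC1A3 ratios cover counting error only, whereas the intervals of LFC come from the edgeR fit and include the spread between libraries.

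The named genes are the 10 genes, the 3 called genes of lowest adjusted p in each list, the 2 genes most correlated with each called member over group means of log2 CPM (prior count 2), and the 2 highest markers of each other cell type. Other genes of a list that are named, because of their counts or calls, were chosen after their values were seen. The 10 genes and the lists were chosen with earlier results of these data known, so counts over them are no independent evidence. Replicates differed from each other with a chi-square of at least 2.00 per degree of freedom, so no library was taken as a copy.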

Additional observations from a re-analysis of the deposited data

Results flagged for a closer look

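The following values are given because 2 metals differed in a direct test of the difference, by edgeR's quasi-likelihood test with 3 libraries per group. For SOX9, arsenic against cadmium gave an LFC of -0.71 at 6 h, -1.20 at 12 h, and -1.07 at 24 h. Arsenic against mercury gave an LFC of SOX9 of -0.59 and -0.53 at 3 and 6 h and of -0.84 and -1.16 at 12 and 24 h. All 3 arsenic libraries were lower than all 3 of the other metal in each of these 7 comparisons, and the share of all genes separated in this way was not counted. The calls against mercury at 3 and 6 h were lost when single libraries were left out. The shares of all genes called in these comparisons are given above. For VIM, arsenic against cadmium at 24 h gave an LFC of -0.39, with overlapping libraries.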

How the results depend on the processing

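Calls of the 4 tested genes were recounted under each alternative. With an LFC beyond 1 also required, the calls fell to 0 for arsenic, 0 for cadmium, 3 between metals, 0 over time in non-treated cells, and 0 averaged over time points. Without a filter, arsenic gave 3 calls, cadmium 2, mercury 0, metals against each other 9, and time in non-treated cells 3. The 9 include SLC1A3 in arsenic against mercury at 24 h, which is not read as a result. Over all genes, the calls without a filter moved from 1763 to 1489 with arsenic at 24 h. They moved from 1009 to 877 with cadmium at 12 h, and from 3433 to 2916 with mercury at 24 h. With the stricter filter mercury gave 0, since NES was no longer tested. With only the libraries compared in the fit, cadmium gave 2 calls and mercury 0. Over all genes, the calls in that setting moved from 1009 to 1060 with cadmium at 12 h and from 270 to 74 at 24 h. With mercury at 24 h they moved from 3433 to 3071. With 1 library left out, the calls ranged from 1 to 2 for arsenic, 0 to 2 for cadmium, 0 to 1 for mercury, 7 to 9 between metals, 1 to 4 over time, and 1 to 2 for the averages. SOX9 with arsenic at 24 h was called in all 6 of these fits, with an LFC of -1.06 to -0.86. Replicate numbers did not pair the libraries: the deviations of metal and non-treated libraries of the same number had a median correlation of -0.00799 (45 pairs), and with the replicate block the number of calls stayed 2 for arsenic, 1 for cadmium, 1 for mercury, and 8 between metals. RLE size factors changed no call. No result reversed its sign under these alternatives. The levels in non-treated cells moved by less than 1 SD with RLE size factors or total counts or without a replicate number. Depth limits GFAP, S100B, AQP4, ALDH1L1, SLC1A2, and SLC1A3, which had too few counts to enter the filtered fit. As an alternative chosen after seeing the data, a 24 h library was left out and the genes filtered again. SLC1A3 then passed the filter in 4 fits, through the mercury libraries in which it was high, so no test of it is given from them.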
